A study of Mus musculus with 14 samples.

Results

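The antigen receptor complex of T cells was described here through 5 genes: Cd3d, Cd3e, Cd3g and Cd247, which encode the CD3 delta, epsilon, gamma and zeta chains, and Ptcra, which encodes the pre-T-cell receptor alpha chain. Members were taken by name: the probe sets annotated to 1 of these genes alone, and the mean log2 value of these probe sets as the gene level. This gave 44 of 179496 probe sets with a single gene symbol and 5 of 15803 genes, with 5 probe sets for Cd3d, 6 each for Cd3e and Cd3g, 18 for Cd247 and 9 for Ptcra. A probe set is a small group of probes that mostly covers 1 exon.

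The arrays measured RNA of 14 mouse thymic lymphomas, 7 of the strain labelled Vav-SB and 7 of the strain labelled CD4-SB. Both model T-ALL, an acute leukaemia of T-lineage blasts, with Sleeping Beauty, in which a mobilised transposon mutates the genes it lands in, and the series title asks how the cell of origin influences genetic selection. By name, the Vav promoter is active throughout blood formation and the Cd4 promoter later, in developing T cells. The labels give no alleles, ages or treatments and no normal thymus, so each level below is set only against the other model.

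The CD3 chains form dimers that carry the receptor to the cell surface and, together with zeta, hold the tyrosine motifs through which it signals. In thymocytes that have rearranged only the beta chain, pre-T alpha stands in for the alpha chain, and the resulting pre-receptor drives survival and the first expansion of the lineage. Ptcra is a known target of Notch signalling and of E proteins, which bind E-box motifs, and it is switched off once the alpha chain is made.

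The promoters of Ptcra and of the neighbouring Cd3g and Cd3d are shown because Ptcra and Cd3g were the members that passed the test between the models, and Cd3d lies beside Cd3g. Each run holds the 250 bases before the transcription start from RefSeq (GRCm38.p6), in the direction of the gene, with E-boxes (CANNTG) in capitals. All 5 members had a promoter entry.

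Ptcra lies on the minus strand, chr17:46763713-46763962.
Ptcra promoter: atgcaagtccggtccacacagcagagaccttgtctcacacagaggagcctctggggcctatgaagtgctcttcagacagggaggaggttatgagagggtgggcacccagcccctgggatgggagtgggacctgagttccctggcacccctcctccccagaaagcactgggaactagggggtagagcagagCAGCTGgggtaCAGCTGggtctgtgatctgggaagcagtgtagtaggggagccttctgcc
Cd3g lies on the minus strand, chr9:44980432-44980681.
Cd3g promoter: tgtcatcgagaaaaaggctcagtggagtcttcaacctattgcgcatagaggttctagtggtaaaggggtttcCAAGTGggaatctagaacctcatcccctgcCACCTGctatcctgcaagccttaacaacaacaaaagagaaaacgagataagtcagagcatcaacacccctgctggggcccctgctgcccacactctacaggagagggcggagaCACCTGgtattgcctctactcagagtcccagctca
Cd3d lies on the plus strand, chr9:44981536-44981785.
Cd3d promoter: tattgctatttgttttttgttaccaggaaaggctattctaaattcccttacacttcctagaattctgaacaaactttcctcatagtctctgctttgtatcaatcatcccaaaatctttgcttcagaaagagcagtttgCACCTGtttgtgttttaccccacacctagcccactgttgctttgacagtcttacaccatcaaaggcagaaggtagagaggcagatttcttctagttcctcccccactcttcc

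The Ptcra promoter held 2 E-boxes, both CAGCTG, whose first bases lay 60 and 49 bases before the start. Cd3g held 3 and Cd3d held 1. Cd247 held 2 and Cd3e held 1. An E-box was present in 66.2% of 32851 mouse promoters of the same length, so its presence does not set these genes apart. The core TGGGAA, read by the Notch effector RBPJ, was found 2 times in Ptcra, 1 time in Cd3g, where it overlaps an E-box, and 1 time in Cd3e. It was found in 21.6% of all promoters. TGTGGT, a RUNX core, and TATAAA were found in none of the 5 and in 14.0% and 12.4% of all promoters. Both strands were searched. The starts of Cd3g and Cd3d lie 1355 bases apart on opposite strands, head to head, and that of Cd3e 27825 bases from that of Cd3d.

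Of the 5 genes, Ptcra and Cd3g were higher in Vav-SB tumours and passed the test (limma, Benjamini-Hochberg over all genes, threshold 0.05). Cd3d, Cd3e and Cd247 did not pass. Of all genes 14.5% passed, 7.28% toward Vav-SB and 7.18% toward CD4-SB, and the median difference over all genes was 0.00 on the log2 scale. All 5 members had a difference above 0, as did 50.7% of all genes. Differences are Vav-SB minus CD4-SB on the log2 scale of gene levels throughout, means are given ± SD with n = 7 tumours per model, and the level of 1 gene is not set against that of another.

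Cd3d, the delta chain that pairs with epsilon, lay between 11.70 and 12.47 in Vav-SB with a median of 12.16, and between 11.55 and 12.09 in CD4-SB with a median of 11.89. The tumours of the models overlapped. The means were 12.12 ± 0.24 and 11.84 ± 0.21, a difference of 0.28 (95% interval 0.02 to 0.54, adjusted p = 0.152). Cd3e, the epsilon chain shared by both CD3 dimers, lay between 11.52 and 11.91 in Vav-SB (median 11.62) and between 11.07 and 11.77 in CD4-SB (median 11.46). Here too the models overlapped, and the means of 11.66 ± 0.14 and 11.44 ± 0.24 differed by 0.22 (95% interval -0.01 to 0.45, adjusted p = 0.196). These intervals leave room for a difference of up to 0.54 for Cd3d and 0.45 for Cd3e. By mean level Cd3d, Cd3e and Cd3g lay above 99.7%, 99.5% and 99.7% of all genes. Whether the arrays compress differences at such high levels was not tested.

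Cd3g, the gamma chain that pairs with epsilon, rose in Vav-SB by 0.39 ± 0.09 (SE), or 1.31-fold (adjusted p = 0.00771). Vav-SB tumours lay between 11.72 and 12.13 with a median of 12.07, and CD4-SB tumours between 11.48 and 11.86 with a median of 11.63. The overlap came from Vav-SB replicate 3 at 11.72. The other 6 Vav-SB tumours lay at or above 12.04, above every CD4-SB tumour. The call ended once the marker level of non-T cells, described further on, entered as a covariate, at a difference of 0.34 (adjusted p = 0.170). The standard error was then 0.13 rather than 0.09.

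Cd247, which encodes the zeta chain with its signalling motifs, was nearly level across the Vav-SB tumours and spread in CD4-SB. It lay between 8.82 and 9.10 in Vav-SB (median 9.04) and between 7.63 and 9.31 in CD4-SB (median 8.43). CD4-SB replicate 1 was the lowest of the 14 tumours at 7.63 and CD4-SB replicate 4 the highest at 9.31. The means of 9.0 ± 0.10 and 8.46 ± 0.50 differed by 0.54 ± 0.18 (SE), or 1.46-fold, and did not pass (adjusted p = 0.0581). Without CD4-SB replicate 4 the difference was 0.68 and passed (adjusted p = 0.00548), and it also passed with array weights (adjusted p = 0.0160), with the title number as a random block (0.0343) and among genes above the median level (0.0417). In the other 19 settings Cd247 did not pass. Among these were 1 tumour per title number at 0.47 (adjusted p = 0.211), the marker covariate at 0.42 (0.414) and the median over probe sets at 0.59 (0.140).

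Ptcra had the largest difference of the 5, 1.30 ± 0.19 (SE), or 2.47-fold higher in Vav-SB (95% interval 0.89 to 1.72, adjusted p = 0.000604). It lay between 8.48 and 9.77 in Vav-SB with a median of 9.15, and between 7.51 and 8.08 in CD4-SB with a median of 7.92. Every Vav-SB tumour lay above every CD4-SB tumour, which held for 4.04% of all genes in either direction and for 2.51% with Vav-SB higher. Within Vav-SB, replicates 3, 4 and 5 were highest, at 9.71, 9.64 and 9.77, and replicate 1 lowest. In all, 153 genes had a larger positive difference. With the marker covariate the difference was 1.13 and the call ended (adjusted p = 0.0536).

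**Figure D1:**
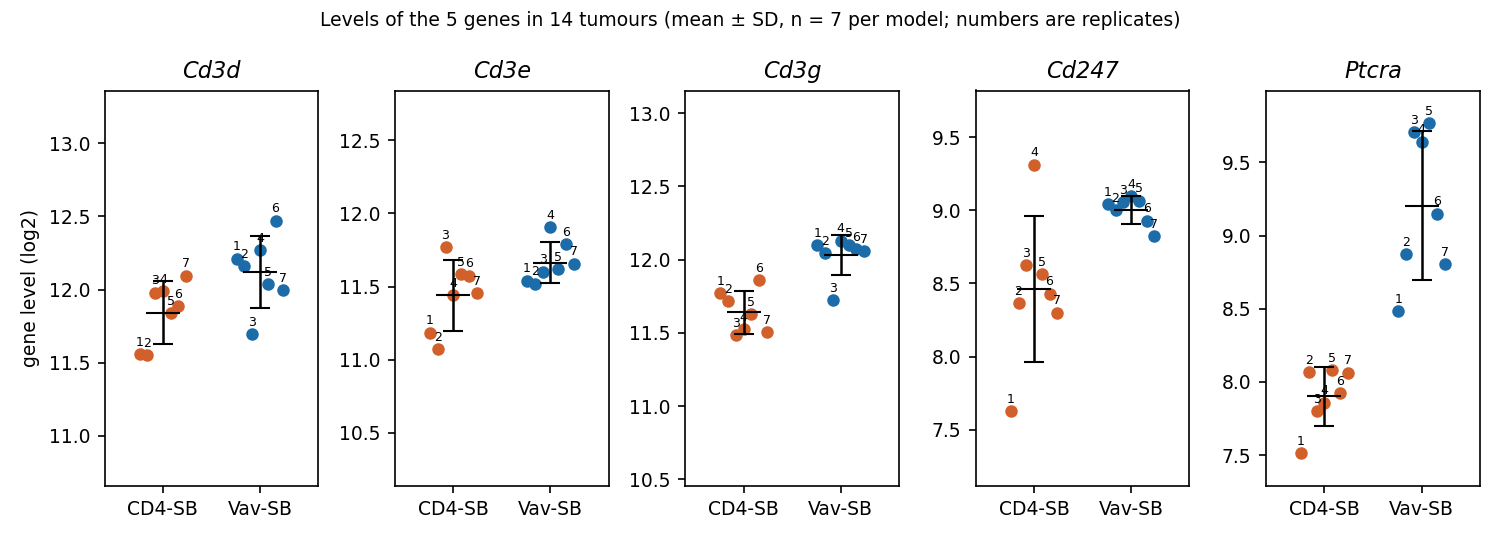
Gene level (log2, y axis) of Cd3d, Cd3e, Cd3g, Cd247 and Ptcra in each of 7 CD4-SB and 7 Vav-SB tumours. Points are tumours with their replicate number, and bars give the mean ± SD. Ptcra is the gene whose models do not overlap, at 8.48 and above in Vav-SB and 8.08 and below in CD4-SB, and Cd247 spreads from 7.63 to 9.31 in CD4-SB.

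The spread between tumours was also compared. The mean absolute deviation from the model's median was 0.07 in Vav-SB against 0.32 in CD4-SB for Cd247, and 0.42 and 0.15 for Ptcra. Neither passed (limma on absolute deviations, adjusted p = 0.798 for both, unadjusted p = 0.0796 and 0.0130). Of all 15803 genes 0 passed that test in limma, which is 0% in either direction, and 868 had an unadjusted p under 0.05. The deviation was wider in CD4-SB in 73.5% of all genes.

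At the level of single probe sets, 11 of the 44 passed between the models, all higher in Vav-SB, beside 8.52% of all probe sets in either direction and 4.53% higher in Vav-SB. They were 7 of 9 for Ptcra, 2 of 6 for Cd3g and 2 of 18 for Cd247, with 0 of 5 for Cd3d and 0 of 6 for Cd3e. Probe sets of a gene share the same 14 RNAs and are not replicates. Differences ran from 0.19 to 0.38 for Cd3d, from 0.11 to 0.35 for Cd3e, from 0.25 to 0.55 for Cd3g, from 0.04 to 0.94 for Cd247 and from -0.08 to 4.08 for Ptcra. In 4 probe sets the models did not overlap, 2 of Ptcra and 1 each of Cd3g and Cd247, beside 2.7% of all probe sets in either direction and 1.76% with Vav-SB higher. The Cd3g count rested on single tumours and settings: it was 4 without CD4-SB replicate 6, 3 without Vav-SB replicate 3, 2 without CD4-SB replicate 1 and 1 without any other tumour.

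**Figure D2:**
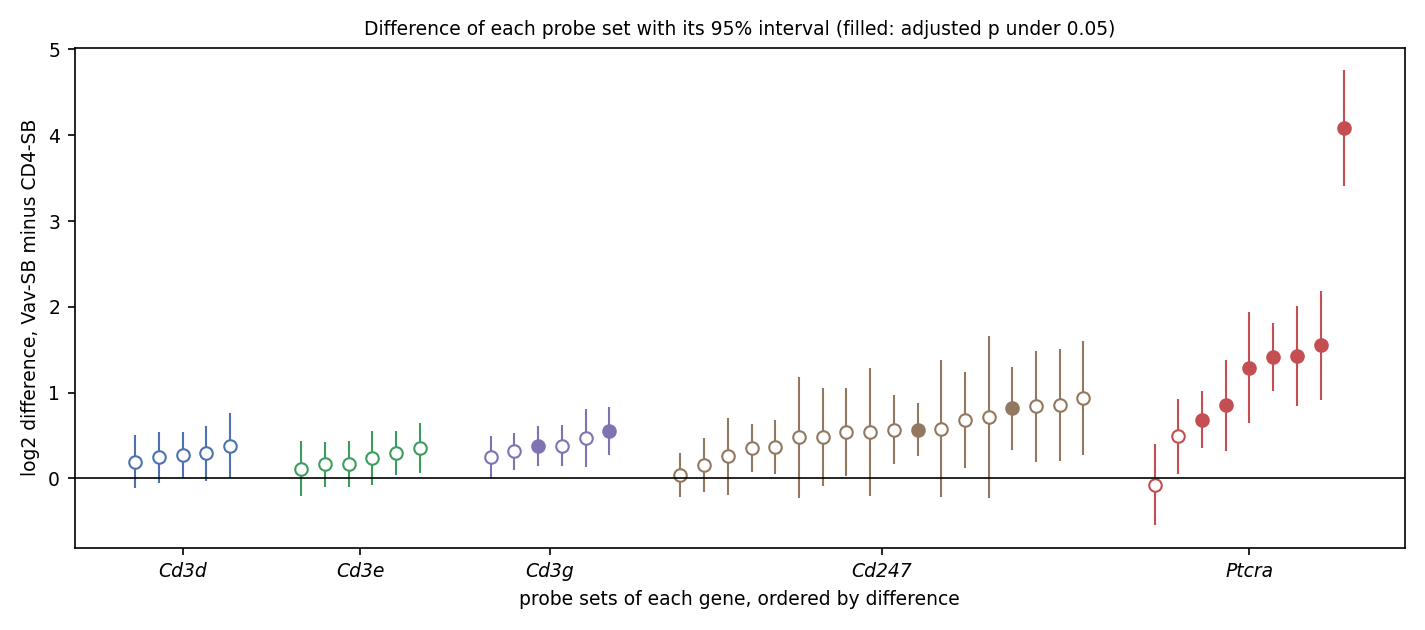
Log2 difference (Vav-SB minus CD4-SB, y axis) of each of the 44 probe sets with its 95% interval, grouped by gene and ordered by difference along the x axis; filled points passed the threshold of 0.05. The largest is a Ptcra probe set at 4.08, far above the next, and the lowest of that gene lies at -0.08.

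The 9 probe sets of Ptcra did not move alike. Probe set 4388189 averaged 10.02 ± 0.72 over Vav-SB tumours and 5.94 ± 0.56 over CD4-SB tumours, a difference of 4.08 ± 0.32 (SE), or 17.0-fold (adjusted p = 1.41e-06). Its Vav-SB tumours lay between 8.96 and 10.77 and its CD4-SB tumours between 4.87 and 6.65. Those CD4-SB values lie below the median of all probe sets, 7.50, and whether they stand above background was not tested, so the fold is that of the deposited values and may understate the difference. Probe set 5126716 was at 10.89 ± 0.27 and 10.97 ± 0.55, a difference of -0.08 (95% interval -0.55 to 0.40, adjusted p = 0.886). In that probe set the models overlapped over most of their range. Between these, 4335460, 4585505, 5265153 and 4476580 differed by 1.42, 1.55, 1.43 and 1.29, and 4788240, 4363983 and 5426766 by 0.85, 0.68 and 0.49, of which the last did not pass (adjusted p = 0.164). The other 6 passed at adjusted p from 0.000315 to 0.0463.

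Set against the rest of the gene (limma's diffSplice, 1.33% of probe sets called), 4388189 stood 3.13 above and 5126716 stood 1.55 below, at -1.55 (adjusted p = 5.27e-16 and 0.000107). Ptcra ranked 19 of 14165 genes in that test, in which 9.9% of genes passed. The other members did not pass, with adjusted p of 0.993 for Cd3d and Cd247, 0.921 for Cd3e and 0.774 for Cd3g. Because diffSplice pools the spread of a gene's probe sets, the difference of each probe set from the mean of the others was also tested per tumour, a test added after the data were seen, in which 1.77% of probe sets passed. There 4 Ptcra probe sets passed: 4388189 (adjusted p = 1.19e-06), 5426766 (0.0104), 5126716 (0.0132) and 4363983 (0.0282). Positions of probe sets along Ptcra were not used here. Without 4388189 the Ptcra level was 9.10 ± 0.48 against 8.15 ± 0.20, a difference of 0.95 ± 0.19 (SE), or 1.94-fold (adjusted p = 0.00377). The models then met almost at the boundary, with the lowest Vav-SB tumour at 8.42 and the highest CD4-SB tumour at 8.37.

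**Figure D3:**
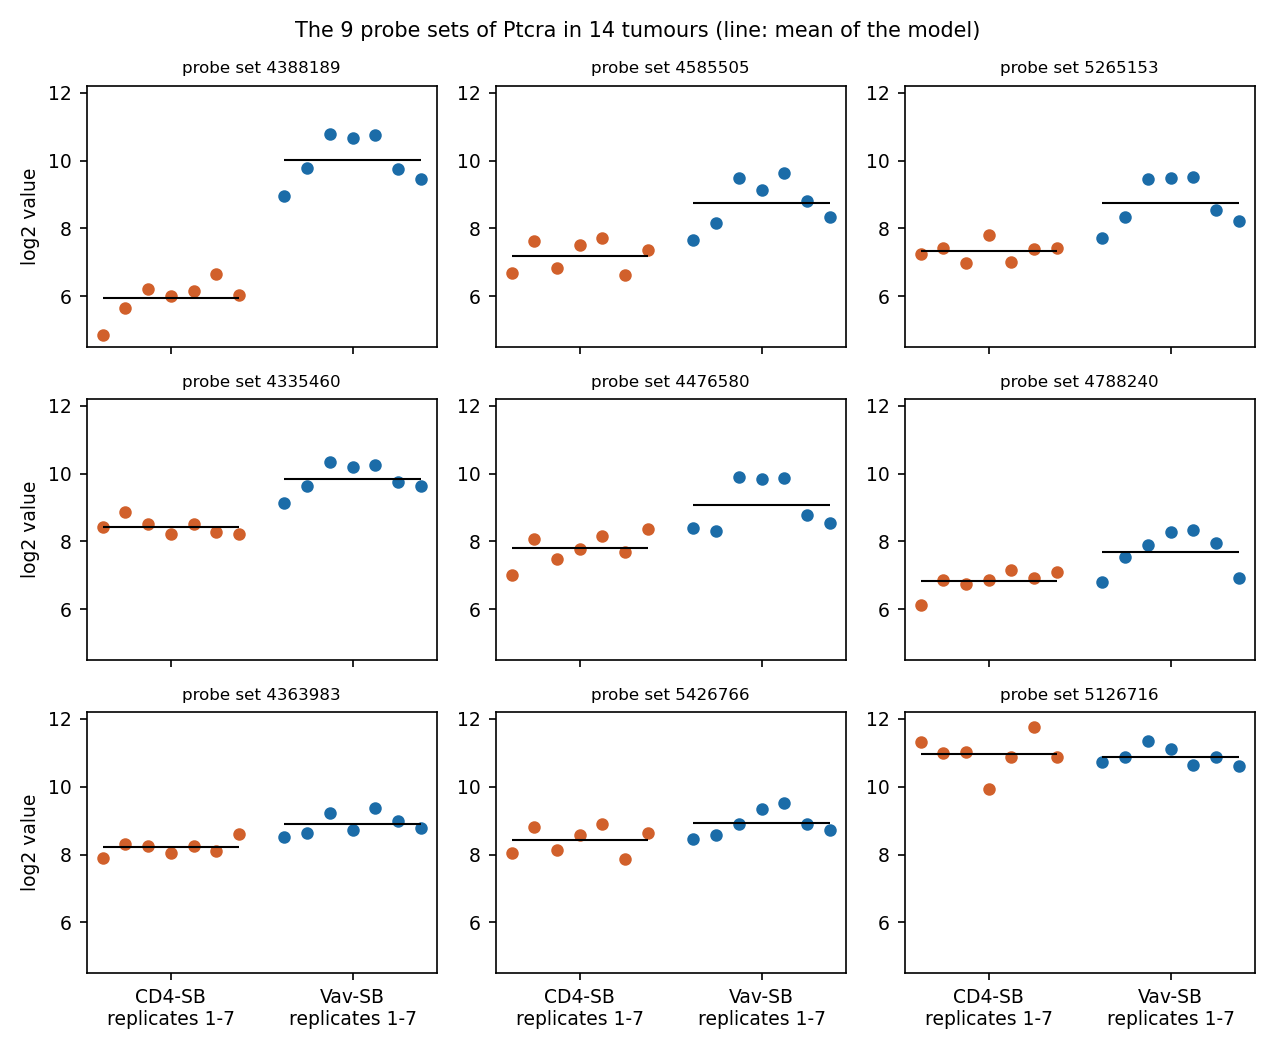
Log2 values (y axis) of the 9 Ptcra probe sets, one panel each, in CD4-SB and Vav-SB replicates 1 to 7; lines mark the mean of the model. Panel 4388189 separates the models by 4.08 on the log2 scale, and panel 5126716 has means of 10.89 and 10.97.

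Within Vav-SB, the probe sets of Ptcra ranked the tumours alike. The median correlation between pairs of probe sets over the 7 tumours was 0.85, and 36 of 36 pairs were above 0. Replicates 3, 4 and 5 were the 3 highest Vav-SB tumours in 6 of the 9 probe sets. In CD4-SB the median was 0.13 and 24 of 36 pairs were above 0. All these values share the same 7 libraries and are a description.

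Cd247 showed the reverse, with a median correlation between probe sets of 0.15 in Vav-SB (89 of 153 pairs above 0) and 0.50 in CD4-SB (136 of 153). CD4-SB replicate 1 was the lowest of the 14 tumours in 13 of the 18 probe sets and below every Vav-SB tumour in all 18. CD4-SB replicate 7 was below every Vav-SB tumour in 17 and replicate 2 in 15. CD4-SB replicate 4 was above every Vav-SB tumour in 7 probe sets and below all of them in 5. In probe set 4891915 it was at 10.61, where the next CD4-SB tumour was at 8.34, and in 4973012 it was at 10.74 while replicate 6 was at 6.88. High and low probe sets of that tumour thus occurred in the same gene. The Cd247 probe sets that passed were 4376281 at a difference of 0.81 and 5211335 at 0.57 (adjusted p = 0.0359 and 0.0247). Probe set 4406510 differed by 0.94 with no overlap but did not pass (adjusted p = 0.0791), with CD4-SB replicate 1 at 6.32. The count of 2 became 8 without CD4-SB replicate 4, was 3 without CD4-SB replicate 1, was 2 without CD4-SB replicates 3 or 7 or Vav-SB replicates 3 or 7, and was 1 without any other tumour.

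**Figure D4:**
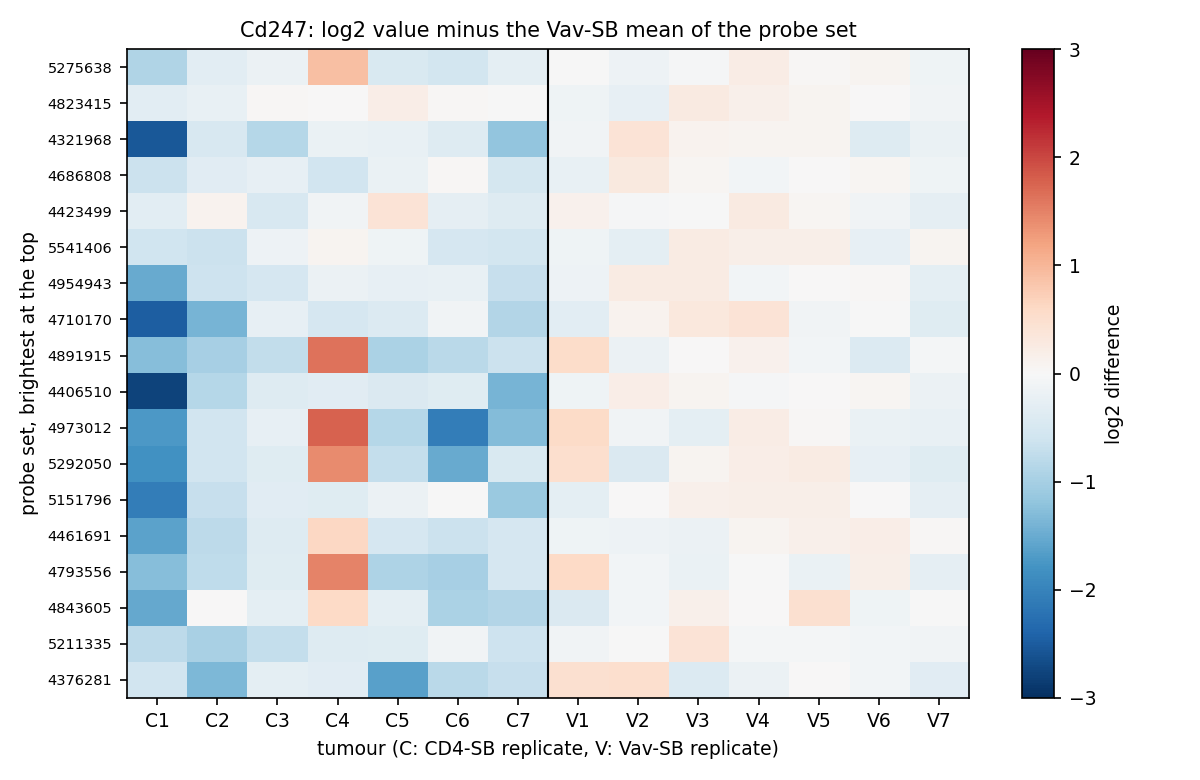
Heat map of the 18 Cd247 probe sets (rows on the y axis, brightest at the top) in 14 tumours (x axis), coloured by the log2 value minus the Vav-SB mean of that probe set. CD4-SB replicate 1 is lower than every Vav-SB tumour in all 18 probe sets, and replicate 4 is higher than every Vav-SB tumour in 7 of them.

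The other genes of the complex were read from lists. Of 20 measured genes of proximal receptor signalling, 10 were higher in Vav-SB, 1 was higher in CD4-SB and 9 did not pass, with a median difference of 0.39. Nck2, an adaptor that binds CD3 epsilon, was 1.52 higher (adjusted p = 6.57e-07), and Themis, a regulator of receptor signals in thymocytes, 3.02 higher, or 8.13-fold (adjusted p = 0.000223). Tespa1, a thymocyte signalling protein, was 1.25 higher (adjusted p = 0.000251). The phosphatase gene Ptpn22, a brake on receptor signalling, went the other way by -0.77 (adjusted p = 0.00301). Zap70, the kinase that docks on the phosphorylated CD3 and zeta motifs, was at 9.01 ± 0.21 and 9.18 ± 0.14 and did not pass (adjusted p = 0.320).

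Of 8 measured coreceptors and accessory receptors 4 rose in Vav-SB and 0 fell, with a median of 1.10. Cd8b1 was 2.53 higher, Cd8a 2.24 higher and Cd4 1.27 higher (adjusted p = 0.000723, 0.00729 and 0.0144). The Cd4 call ended with 1 tumour per title number, at 1.04 (adjusted p = 0.0890), and with the marker covariate, at 1.77 (0.0511). Of 13 genes of assembly and turnover of the complex 2 rose in Vav-SB and 6 fell, with a median of -0.28. Ubash3b, which encodes a phosphatase that restrains receptor signalling, was lower in Vav-SB by -1.59 (adjusted p = 0.000389). The adaptors Sla2 and Cbl, which take part in receptor degradation, were higher by 0.75 and 0.71 (adjusted p = 0.00509 and 0.00535), and both calls ended with the marker covariate (0.235 and 0.216).

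Fcer1g, whose gamma chain can replace zeta in the receptor and also serves Fc receptors of myeloid and natural killer cells, was 2.74-fold higher in CD4-SB, at 10.14 ± 0.45 against 8.69 ± 0.53 (adjusted p = 0.00146), with no overlap. Tyrobp, a related adaptor gene of the same cell types, was 2.10-fold higher in CD4-SB (adjusted p = 0.00143). Both calls ended with the marker covariate, at -0.78 and -0.51 (adjusted p = 0.155 and 0.152). They were the only 2 calls among 12 genes of natural killer and cytotoxic cells, of which 10 did not pass. Fcer1g is also counted above among the genes of assembly and turnover that fell in Vav-SB. Gzma at 1.41 and Prf1 at 0.10 leaned toward Vav-SB (adjusted p = 0.224 and 0.818).

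Of 16 measured regulators of Ptcra 10 rose in Vav-SB and 0 fell, with a median of 0.74. Notch1 was 3.18 higher (adjusted p = 2.9e-08) and Notch3 1.29 higher (0.000181), and the E protein gene Tcf12 was 1.61 higher (6.57e-07). Bcl11b, a factor of T-lineage commitment, was 0.69 higher (adjusted p = 4.5e-05). Tcf3, another E protein gene, at -0.14, and Rbpj, the DNA-binding effector of Notch, at 0.17, did not pass (adjusted p = 0.327 and 0.632). Of 9 Notch targets other than Ptcra 3 rose in Vav-SB and 1 fell, with Hes1 at 1.10, Dtx1 at 1.54 and Hey1 at -0.71 (adjusted p = 0.000231, 0.000362 and 0.0205). The 3 that rose include Notch3, already counted among the regulators. The Hey1 call ended with the median over probe sets, at -0.37 (adjusted p = 0.202), and with the marker covariate, at -0.50 (0.342). Of 9 genes of the stage that carries the pre-receptor 4 rose in Vav-SB and 1 fell, the first including Rag1 at 4.43 (adjusted p = 1.65e-06). These lists were written with results of these data known and describe, rather than test, their direction.

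The Ptcra level was set against Notch1 and the Notch targets across tumours within each model, relations added after the data were seen. Over the 7 Vav-SB tumours Pearson's r with Notch1 was 0.87 and Spearman's rho 0.82 (exact permutation p = 0.0296 and 0.0341, two-sided, adjusted p = 0.165 and 0.220 over 20 relations), and r was 0.84 without the 2 tumours farthest from the median Ptcra level. With Notch3 r was 0.79 and rho 0.75 (exact permutation p = 0.0367 and 0.0663, adjusted p = 0.165 and 0.220), and r was 0.87 without the 2 farthest tumours. Of the other targets in Vav-SB, r was 0.83 for Il2ra, 0.81 for Dtx1 and 0.79 for Nrarp, but 0.29 for Hes1, 0.10 for Hes5, 0.0045 for Hey1, -0.40 for Ccnd3 and -0.59 for Myc. In CD4-SB r was -0.08 with Notch1 and 0.53 with Notch3, and ran from -0.34 (Hey1) to 0.72 (Myc) for the others. The Myc relation had a rho of 0.29. Without the 2 tumours farthest from the median Ptcra level, r in CD4-SB was -0.85 with Notch1 and -0.07 with Notch3. In Vav-SB r was then 0.62 for Il2ra, 0.69 for Dtx1 and 0.57 for Nrarp. None of the 20 relations passed after adjustment. Nor did any of 30 relations among the 5 members and with the markers of other cells, whose smallest adjusted p was 0.554.

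**Figure D5:**
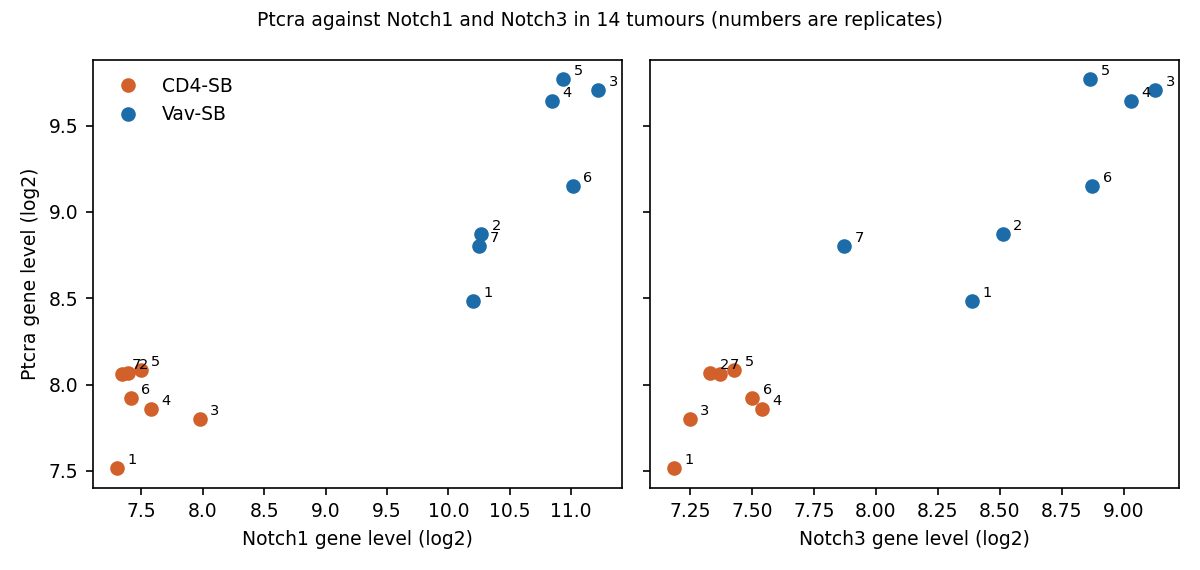
Ptcra level (log2, y axis) against Notch1 and Notch3 level (log2, x axes) in 14 tumours, coloured by model and numbered by replicate. In Vav-SB r was 0.87 and 0.79, neither past the threshold after adjustment, and the CD4-SB tumours lie apart at low levels of all 3 genes.

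For each member the 3 most similar genes were taken over the 14 tumours after centring each model on its mean. For Ptcra these were P2rx1 (r = 0.92), Mettl6 (0.89) and Ccer1 (0.85). P2rx1 and Mettl6 were also higher in Vav-SB, 2.48-fold and 2.87-fold (adjusted p = 0.000442 and 0.00126), without overlap, and Ccer1 was not (0.05, adjusted p = 0.707). For Cd247 they were Ccdc68 (0.90), Cdc42ep1 (0.89) and Tacr1 (0.88), with r of 0.94, 0.95 and 0.91 in CD4-SB and 0.60, -0.22 and -0.10 in Vav-SB. For Cd3d they were Ccdc32 (0.89), Cpa4 (0.86) and Cd3eap (0.86), the last a subunit of RNA polymerase I and not a receptor chain. For Cd3e they were Gimap6, Mb21d2 and Ifi47 (0.83, 0.83 and 0.82), and for Cd3g Man2a2, Sbpl and Entpd7 (0.93, 0.87 and 0.86). Some of these were also uneven between Vav-SB and CD4-SB, with r of 0.41 and 0.94 for Gimap6, 0.57 and 0.89 for Ifi47, and 0.94 and 0.51 for Mettl6. All were picked as the highest r among all genes, so high values follow from the choice and were not tested.

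T-lineage markers were compared between the models, which cannot check the tissue label. Of 8 measured T-lineage genes (Thy1, Cd2, Cd5, Bcl11b, Tcf7, Gata3, Lat and Cd6) 5 rose in Vav-SB and 0 fell, and the list averaged 10.24 ± 0.18 there against 9.44 ± 0.49. All 8 also belong to lists counted above, so these calls repeat earlier ones and add no separate evidence. Of the 5 calls, that of Bcl11b held with the marker covariate, and those of Gata3, Lat, Tcf7 and Cd2 ended (adjusted p = 0.143, 0.163, 0.295 and 0.285). With the median over probe sets those of Lat, Tcf7 and Cd2 ended (adjusted p = 0.0704, 0.0575 and 0.0547), and that of Cd2 with 1 tumour per title number (0.196). Among fits that omit 1 tumour the Cd2 call ended in 11 of 14 and that of Tcf7 in 3 (adjusted p up to 0.0968 and 0.0555). Lck and the constant genes of the receptor chains were not analysed here. Tcra, chosen after its values were seen, was at 8.45 ± 0.78 and 7.72 ± 0.27 (adjusted p = 0.108). Of 48 marker genes of dendritic, other myeloid, B-lineage and stromal cells 13 were higher in CD4-SB and 1 in Vav-SB, and 45 had their difference toward CD4-SB. On average these stood at 7.76 ± 0.27 in Vav-SB (7.48 to 8.21) against 8.54 ± 0.46 in CD4-SB (7.86 to 9.06), a difference of -0.77. The marker lists were chosen with results of these data known, so this difference is a description and not a test. In bulk tumours fewer cells of a type and less RNA per cell cannot be told apart. The part of other cells in the differences of Ptcra, Cd3g and Cd247 was not tested beyond the marker covariate, with which the Ptcra and Cd3g calls ended at 1.13 and 0.34 on the log2 scale.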

How the data were processed

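RNA of 14 thymic lymphomas was profiled on exon arrays, 7 per strain label. The authors deposited log2 values per probe set, read as log2 from their range of 2.03 to 14.03, since the base is not stated. RMA and Partek are named, without versions, per the submitters' processing notes; the background step and any filter were not given in the sources used here. RNA was amplified from a small input, per the labels' protocols, a step that can favour some stretches of a transcript. The number of arrays limits the precision.

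Of 194293 probe sets, 179496 had 1 gene symbol, 1328 several and 13469 none in the platform annotation. Symbols were updated through a GRCm38.p6 table: 13727 were current, 2014 replaced, 32 had several replacements, 25 were kept and 5 were unmatched. Column medians lay between 7.46 and 7.50 and correlations between tumours from 0.877 to 0.968, with 0 identical pairs.

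Replicates were numbered in accession order. The 7 CD4-SB tumours carry 4 title numbers and the 7 Vav-SB tumours 7; what a number means and whether tumours came from separate animals is not said, so p-values reflect only how much these tumours vary. Genes, probe sets and spread were tested with limma 3.58.1 (R 4.3.3), p-values being adjusted by Benjamini-Hochberg across all features at a threshold of 0.05, and probe sets against their gene with diffSplice (genes with at least 3 probe sets). Correlations used exact permutations in scipy 1.17.1. The tests were tried on simulated data with independent values for each gene or probe set. The spread test was tried there only at a wider ratio of SDs than the members show. How often it finds smaller differences in spread is thus not known. The marker covariate is the mean level of the 48 markers. It differs between the models, so a fit that holds it is less precise. With it the standard error was 0.128 for Cd3g and 0.292 for Ptcra, against 0.085 and 0.194 without. A call that ended there thus does not show that the difference was gone. Members and lists were chosen with earlier results of these data known. Named genes are the members, up to 4 genes per list with the smallest adjusted p past the threshold, Notch1, Notch3, Rag1, Cd4, Cd8a, Zap70 and Fcer1g whatever their values, and the 3 genes most similar to each member; not all of them are described, and Tcf3, Rbpj and Tcra were added after their values were seen. Gzma and Prf1, which leaned against the calls of their list, and Blk and Il17a were also named outside this rule. Alternatives comprised normalization, summary, filters, weights, prior, title number, marker covariate and single tumours left out.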

Additional observations from a re-analysis of the deposited data

Results flagged for a closer look

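In 98 groups of 7 tumours, each gene level and probe set of the members in each model, 12 had a tumour whose gap to its nearest neighbour exceeded Dixon's critical value of 0.568 of the range. Chance alone marks about 1 in 20 groups, and probe sets of a gene share their tumours. Vav-SB replicate 3 stood low in Cd3g, at a gene level of 11.72 where the nearest Vav-SB tumour was at 12.04, and in its probe sets 5089991 (12.33), 5189310 (11.48) and 5044474 (9.53). The same tumour stood high in Cd247 probe set 5211335, at 7.30. CD4-SB replicate 4 stood high in Cd247 probe sets 5275638 (12.64), 4891915 (10.61) and 4793556 (9.42). CD4-SB replicate 1 stood low in Cd247 probe sets 4321968 (8.17), 4954943 (7.65) and 4406510 (6.32) and in Ptcra probe set 4788240 (6.13). Of the 12, 7 were in Cd247, 4 in Cd3g and 1 in Ptcra.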

How the results depend on the processing

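No paired analysis was possible because replicate numbers follow accession order and name no shared animal or batch. The marker covariate, planned with earlier results known, ended the calls of Cd3g (0.34, adjusted p = 0.170) and Ptcra (1.13, adjusted p = 0.0536). It gave 451 called genes, against 2284 in the main fit, and 0 called probe sets of Cd3g, 0 of Cd247 and 2 of Ptcra. It turned the sign of the markers Itgax (0.12), H2-Aa (0.33) and Dcn (0.14), which are part of that covariate, and of Ptcra probe set 5126716 (0.15). Cd247 passed at 0.54 among genes above the median level and with array weights, and at 0.57 with the title number as a random block. In 19 alternatives, single tumours left out included, Cd247 did not pass. Probe sets of Cd3g called were 5 with array weights and 4 with a trended prior. With 1 tumour per title number 1 probe set each of Cd3g and Cd247 was called, and 5126716 turned to 0.11. Tested per tumour, 4 Ptcra probe sets stood apart from their gene, not 2. Without single tumours the differences ran from 0.22 to 0.35 for Cd3d, 0.16 to 0.28 for Cd3e, 0.36 to 0.44 for Cd3g, 0.40 to 0.68 for Cd247 (adjusted p = 0.00548 to 0.102) and 1.21 to 1.42 for Ptcra (adjusted p = 0.000229 to 0.00185). Genes called ran from 1628 to 2518, and called probe sets from 1 to 4 for Cd3g, 1 to 8 for Cd247 and 6 to 7 for Ptcra. The difference in spread of Cd3d ran from -0.032 to 0.045. The difference between models of probe set 5126716 ran from -0.25 to 0.056, reversed without CD4-SB replicate 6. The spread of Cd3d also changed sign without CD4-SB replicate 5 (-0.0028), CD4-SB replicate 6 (-0.011), Vav-SB replicate 3 (-0.032) and Vav-SB replicate 6 (-0.0071). The causes were not tested. Whether low values stand above background was not tested, and differences between low values may be understated. Whether differences at the high levels of Cd3d, Cd3e and Cd3g are compressed was not tested either.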

Other observations

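The gamma-delta T-cell list, 5 of whose 12 genes were measured, had 2 calls toward Vav-SB and 1 toward CD4-SB, with a median difference of -1.26. Blk and Il17a leaned toward CD4-SB, at -1.31 and -1.26, and did not pass (adjusted p = 0.247 and 0.255). Sox13, a transcription factor of gamma-delta T cells, was 0.56 higher in Vav-SB and Cd163l1, a scavenger receptor gene of such cells, 1.90 higher. The Sox13 difference was 0.06 with bright probe sets only (adjusted p = 0.710), and its call also ended with the median over probe sets (0.38, adjusted p = 0.137) and with the marker covariate (0.41, adjusted p = 0.148). The Cd163l1 call ended with the marker covariate (1.15, adjusted p = 0.378). Il23r, the interleukin-23 receptor, was lower by -3.01 on average, with the CD4-SB tumours at 8.78 ± 2.74 and Vav-SB tumours at 5.77 ± 0.57. Il23r levels in CD4-SB were 10.60 in replicates 1 and 2, 11.50 in replicate 5 and 11.07 in replicate 6, and 6.57, 5.69 and 5.40 in replicates 3, 4 and 7. The Il23r call ended in 11 of 14 fits that omit 1 tumour, with the median over probe sets (-3.03, adjusted p = 0.0644), with a single tumour kept per title number (-2.82, adjusted p = 0.0717) and with the marker covariate (-2.20, adjusted p = 0.422).

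Cnpy3, a neighbour of Ptcra in the gene table, averaged 8.33 ± 0.14 in Vav-SB against 8.34 ± 0.14 in CD4-SB (adjusted p = 0.943), beside the 2.47-fold difference of Ptcra. Trgv3, measured by 1 probe set, was at 11.54 ± 1.83 and 11.61 ± 1.38 (adjusted p = 0.967). Both were chosen after their values were seen.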
